A study of Mus musculus with 18 samples.

Results

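The genes described here are the secreted Wnt ligands, their Frizzled, Lrp and Lgr receptors, the R-spondins and the secreted Wnt antagonists of the mouse. They were taken by gene symbol (Wnt, Fzd, Dkk, Sfrp, Lrp5 and Lrp6, Rspo, Lgr4 to Lgr6, Frzb and Wif1), which gave 48 of the 54429 gene names in the FLAG-EED count table, and all 48 also stood in the table of the wildtype cells. They comprise 19 Wnt ligands, 10 Frizzled receptors, 2 Lrp co-receptors, 4 R-spondins, 3 Lgr receptors, 4 Dickkopf proteins and 6 secreted antagonists that bind Wnt (Sfrp1, Sfrp2, Sfrp4, Sfrp5, Frzb and Wif1). The series measured RNA of mouse embryonic stem cells (mESCs) and of the floating aggregates, called embryoid bodies, in which they differentiate. Its title names acetylation of EED, a core subunit of the Polycomb repressive complex PRC2, by CBP and P300. Knock-in cells carried FLAG-tagged EED, either of wildtype sequence (FLAG-WT) or as the K19R mutant (K19R), and the tag was common to both lines. Each line was sampled on day 0 as mESCs in serum medium with LIF and 2i, an inhibitor of MEK together with one of GSK3, and on days 2, 6 and 10 as embryoid bodies without LIF and 2i. A ninth group held wildtype mESCs without the tag, grown with LIF but not 2i. Each of the 9 groups had 2 libraries. How many clones stand behind each line is not given in the labels, so a feature of a clone and the effect of K19R cannot be told apart. The labels do not say that replicates were separate cultures, so a p-value here speaks only of the spread among the libraries, which may be technical.

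Wnt proteins are lipid-modified signals that bind a Frizzled receptor together with Lrp5 or Lrp6. Binding stops the destruction complex, in which GSK3 takes part, from removing beta-catenin, and beta-catenin then switches on target genes with TCF and LEF proteins. R-spondins bind Lgr receptors and keep Frizzled at the cell surface. Dickkopf proteins such as Dkk1 block Lrp5 and Lrp6, and Sfrp proteins, Frzb and Wif1 bind the Wnt ligands themselves. In the mouse embryo Wnt signals from the posterior epiblast and the extraembryonic endoderm are needed for the primitive streak, and in mESC culture the GSK3 inhibitor of 2i acts on this same pathway. Removal of the GSK3 inhibitor after day 0 and differentiation cannot be told apart here.

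The FLAG-EED libraries held 20158077 to 28917558 counts each, and the wildtype libraries 14190166 and 37375083. Of the 48 genes, 44 passed the filter on low counts, and Wnt1, Wnt2, Dkk2 and Dkk4 did not, with at most 5 counts in any FLAG-EED library. The labelled cell types were checked with marker genes fixed by list. The 10 pluripotency markers summed to 6080 to 6319 counts per 1000000 (CPM) in the mESCs of both lines at day 0 and to 691 to 2458 CPM in the embryoid bodies, and none was at 0. All 14 markers of extraembryonic endoderm passed as higher at day 6 and at day 10 than at day 0 in each line. 1 library of day 0 stood apart in them: they summed to 34.6 CPM in FLAG-WT replicate 1 and 141 CPM in replicate 2, beside 57.03 and 60.4 CPM in K19R cells, and Afp alone was at 1.78 and 54.99 CPM in FLAG-WT. At day 0, 7 of these markers were lower and 1 higher in K19R, or 2 and 2 without FLAG-WT replicate 2. Without that library 5 members passed between the lines at day 0 in place of 7 (Wnt7b and Wif1 were lost), and 24, 34 and 30 members passed in FLAG-WT cells at days 2, 6 and 10 against day 0 in place of 28, 35 and 37. Its part in the day 0 comparisons beyond these counts was not tested. 7 of the 48 genes overlap an exon of another gene over 3.2% to 17.8% of their exonic bases (Fzd5, Sfrp2, Rspo3, Wnt11, Wnt7b, Wnt5a and Fzd6), and their values are uncertain to that extent because counting used no strand.

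Between K19R and FLAG-WT cells the genes differed little at day 0 and more from day 2 on, in mixed directions. At day 0, 4 of the 44 tested members were higher and 3 lower in K19R cells (edgeR quasi-likelihood test, adjusted p under 0.05), where 10.5% of all 19092 tested genes passed (1052 higher and 951 lower). At day 2, 13 were higher and 8 lower, where 41.8% of all genes passed (3818 higher and 4155 lower). At day 6 there were 21 higher and 11 lower members, beside 5429 and 5742 of all genes (58.5%). At day 10 there were 20 higher and 13 lower, beside 6336 and 4806 of all genes (58.4%). The share of members that passed, 15.9%, 47.7%, 72.7% and 75% at the 4 days, was above that of all genes at each day, and no test of that excess was made. Counts by role or by list further below are to be read beside these shares of all genes. The median log2 difference of the tested members was -0.14, 0.32, 0.77 and 0.80 at days 0, 2, 6 and 10, beside 0.00, 0.00, 0.02 and 0.13 over all genes. With members at 0 counts in a group set to their bound or left out, the medians at days 6 and 10 were 0.71 and 0.78. The split into higher and lower depends on the scaling at the late days. With library totals in place of trimmed mean scaling it was 23 to 6 at day 6 and 24 to 12 at day 10, while that of all genes became 8582 to 3188 and 9329 to 2785. In bulk RNA, fewer cells of a type and less RNA per cell cannot be told apart.

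**Figure D1:**
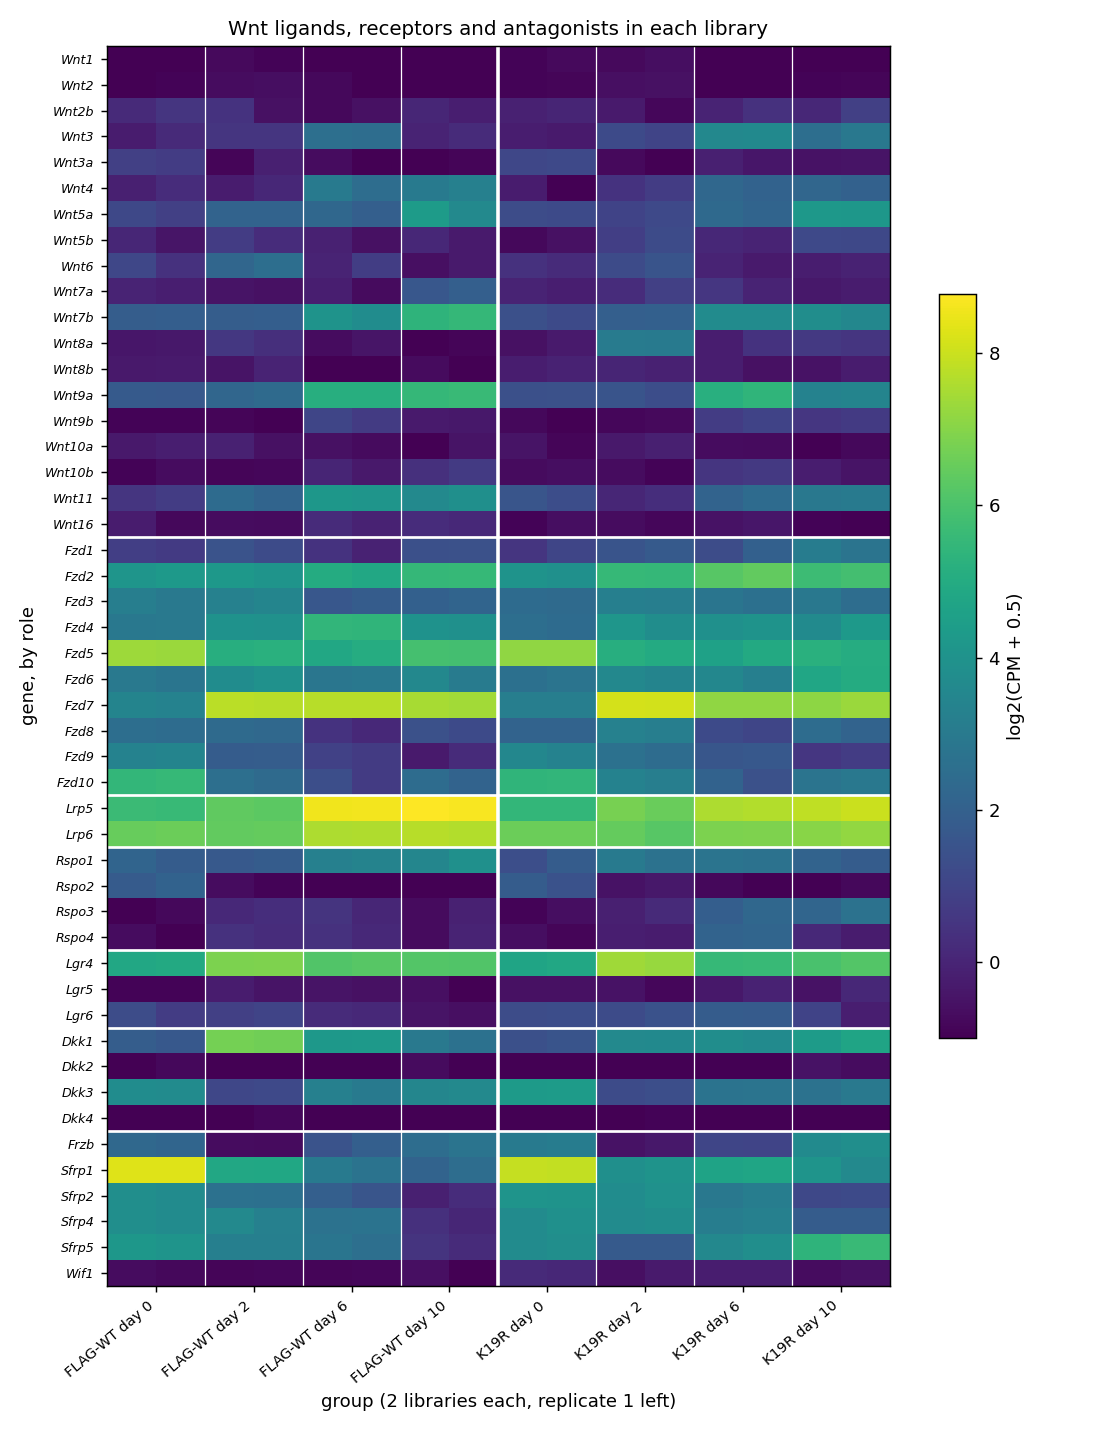
Level of each of the 48 genes in each of the 16 FLAG-EED libraries, as log2(CPM + 0.5) by colour, with genes grouped by role and 2 columns per group. Fzd5, Fzd10 and Sfrp1 are high at day 0 in both lines and Fzd7, Lgr4 and Lrp5 are high later, while Dkk1 is brightest in FLAG-WT cells at day 2 and Sfrp5 brightest in K19R cells at day 10.

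**Figure D2:**
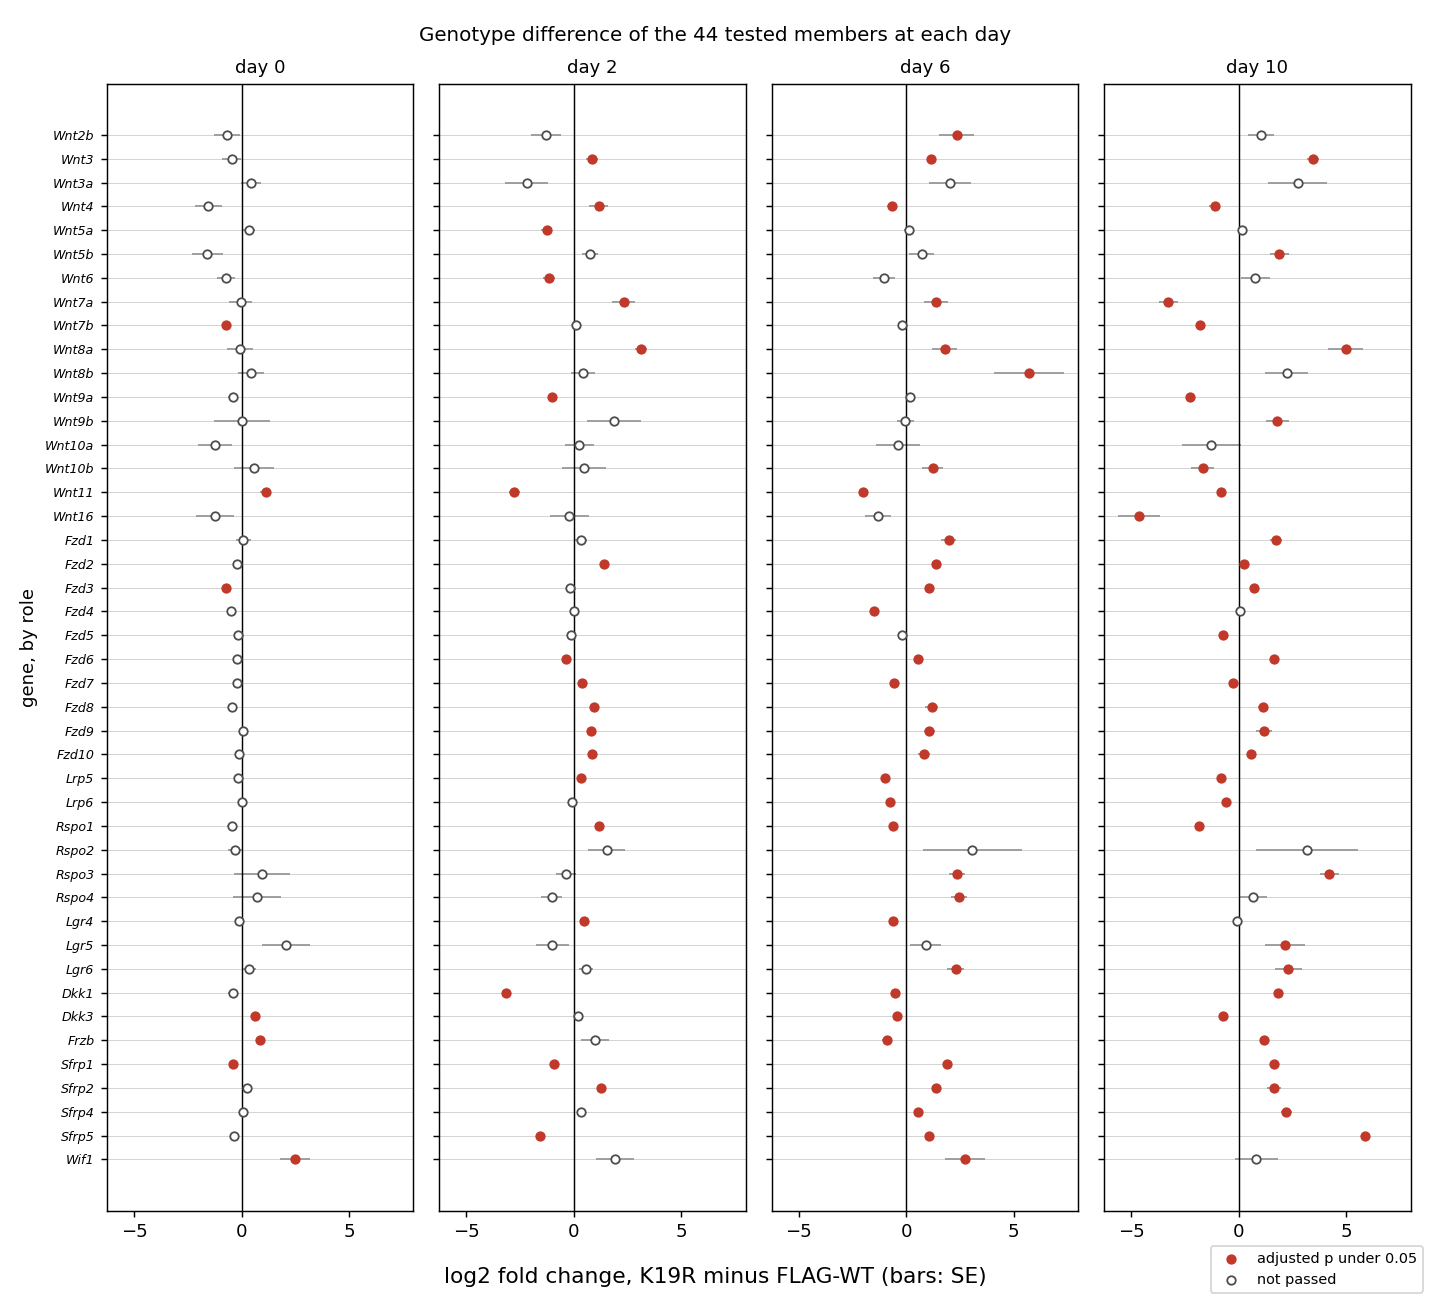
Log2 fold change of K19R over FLAG-WT cells (points, bars are SE) for the 44 tested genes at days 0, 2, 6 and 10, with filled points where the adjusted p was under 0.05. Few points are filled at day 0, and later days have filled points on both sides of 0, such as Wnt11 at -2.77 on day 2 and Sfrp5 at 5.86 on day 10.

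7 members were higher in K19R cells at each of days 2, 6 and 10, namely Wnt3, Wnt8a, Fzd2, Fzd8, Fzd9, Fzd10 and Sfrp2. Wnt11 alone was lower at all 3 days. Several of these calls were lost in fits that left out a library. They were Wnt3 at day 2, Wnt8a at day 6, Fzd2 and Fzd9 at day 10 and Fzd10 at days 6 and 10. Dkk1, Fzd6, Sfrp1 and Sfrp5 were lower at day 2 and higher at day 10, and Fzd7, Lrp5, Rspo1, Wnt4 and Wnt7a were higher at day 2 and lower at day 10. Fzd6, Lrp5 and Wnt4 lost their day 2 call in such fits, and Fzd7 its day 10 call. Sfrp1 and Wnt11 passed at all 4 days, though the day 0 call of each was lost in fits that left out a library. Rspo2, Wnt3a and Wnt10a passed at none.

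PRC2 is known to sit at promoters rich in CpG, and the promoter sequences of 4 members with large genotype differences are printed here to show how far they differ in it. RefSeq promoters on GRCm38.p6 were matched by symbol to 31 of the 48 genes. In the 250 bases before the RefSeq start site the 34 promoters of these genes held a median of 21.5 CpG, beside 14 in the 16430 promoters of 12912 tested genes and 6 in all 32851 promoters. Each is given 5′ to 3′ on the strand of its gene with CpG in capitals. Wnt11 (plus strand, chr7:98834862-98835111) held 37 CpG in 250 bases, Wnt9a (plus strand, chr11:59306680-59306927) 48 in 248, Wnt3 (plus strand, chr11:103773925-103774149) 20 in 225 and Sfrp5 (minus strand, chr19:42202253-42202502) 13 in 250.
Wnt11: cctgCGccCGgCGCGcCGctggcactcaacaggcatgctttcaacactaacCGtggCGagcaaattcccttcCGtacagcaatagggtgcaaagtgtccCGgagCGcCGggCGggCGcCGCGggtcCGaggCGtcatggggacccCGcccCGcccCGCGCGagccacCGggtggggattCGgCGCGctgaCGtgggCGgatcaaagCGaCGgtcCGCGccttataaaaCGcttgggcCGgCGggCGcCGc
Wnt9a: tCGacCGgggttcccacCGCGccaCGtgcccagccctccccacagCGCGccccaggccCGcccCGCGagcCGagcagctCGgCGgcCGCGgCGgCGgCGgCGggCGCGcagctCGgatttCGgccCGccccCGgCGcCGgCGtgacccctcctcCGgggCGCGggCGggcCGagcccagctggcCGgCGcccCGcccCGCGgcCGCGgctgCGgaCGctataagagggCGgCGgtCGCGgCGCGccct
Wnt3: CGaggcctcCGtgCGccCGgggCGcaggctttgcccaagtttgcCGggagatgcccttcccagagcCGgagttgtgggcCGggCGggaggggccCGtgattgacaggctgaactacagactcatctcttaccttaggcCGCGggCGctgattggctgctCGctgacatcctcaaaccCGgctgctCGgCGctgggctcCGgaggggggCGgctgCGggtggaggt
Sfrp5: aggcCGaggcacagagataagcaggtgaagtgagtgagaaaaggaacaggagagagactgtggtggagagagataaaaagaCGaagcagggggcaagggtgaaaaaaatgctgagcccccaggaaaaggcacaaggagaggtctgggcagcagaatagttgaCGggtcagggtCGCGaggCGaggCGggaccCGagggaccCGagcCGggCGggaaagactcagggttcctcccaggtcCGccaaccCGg
The 4 genes were chosen after their values were seen. Among other members, Fzd9 and Fzd10, with 42 and 37 CpG, were higher in K19R cells at days 2, 6 and 10. Wnt4, with 44, was higher at day 2 and lower at days 6 and 10, and Wnt3a, with 41, passed at no day. Wnt2b, with 36, was higher at day 6. Dkk1, with 6, was lower at days 2 and 6 and higher at day 10. Whether CpG went with the direction of the difference was not tested. These counts cover the full window before the RefSeq start, while the printed windows of Wnt9a and Wnt3 were cut at the GENCODE start. By GENCODE, the window of Fzd10 lies within the gene, and those of Fzd9, Wnt4, Wnt3a, Wnt2b and Dkk1 lie partly within it. The printed sequences are reference letters, and no binding or histone mark was measured in the libraries described here.

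The core of the TCF and LEF binding motif, CTTTGA on either strand (TCAAAG when read on the other), was searched in the same windows. It was present in 5 of the 34 promoters of members (14.7%), in 11.2% of those of tested genes and in 13.8% of all promoters; the 3 shares were close to each other. Frzb, Fzd1, Wnt11 and Wnt5b each had 1 promoter with 1 match. In K19R cells Fzd1 was higher at days 6 and 10 and Wnt5b at day 10. Wnt11 was lower at days 2, 6 and 10, and Frzb was lower at day 6 and higher at day 10. Whether the core went with the direction of the difference was not tested. Dkk1, which was lower in K19R cells at days 2 and 6 and higher at day 10, held it at 2 places. They are shown with the match in capitals (minus strand, chr19:30549655-30549680 and chr19:30549598-30549623). The window of Dkk1 ends at the RefSeq start of 30549496, and the gene starts further out in GENCODE, at 30549665. By the latter annotation the second match lies within the gene, and the core of the first reaches its first base.
Dkk1 match 1: ggggagagtgTCAAAGtcctccctgc
Dkk1 match 2: cctcccaaagCTTTGAaatcccatcc
A match is a run of letters and not a shown binding site.

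Among the 17 tested Wnt ligands, K19R cells had 1 higher and 1 lower at day 0, 4 to 4 at day 2, 6 to 2 at day 6 and 4 to 7 at day 10 (higher to lower). Wnt3 and Wnt8a, which signal through beta-catenin and act in the early embryo, were the 2 ligands higher at every day after 0. Wnt9a, Wnt7b and Wnt11, the most abundant ligands of late FLAG-WT embryoid bodies, were lower at day 10. With library totals as the scaling, the ligands split 8 to 1 at day 6 and 6 to 7 at day 10.

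Wnt3 (chromosome 11, 103774150 to 103817957, plus strand) stood at 0.330 and 0.633 CPM in FLAG-WT and 0.369 and 0.326 CPM in K19R cells at day 0. At day 6 it had reached 5.41 and 5.08 CPM in FLAG-WT and 11.4 and 11.8 CPM in K19R cells. At day 10 the FLAG-WT libraries were back at 0.470 and 0.642 CPM, while those of K19R held 5.23 and 7.13 CPM. The lines overlapped at day 0, and every K19R library lay above both FLAG-WT libraries at days 6 and 10. The log2 difference was 1.14 ± 0.18 (adjusted p = 6.2e-06) at day 6 and 3.46 ± 0.29 (adjusted p = 1.1e-10) at day 10. At day 2 the values were 0.905 and 0.931 CPM against 1.77 and 1.53 CPM, a log2 difference of 0.84 ± 0.28 (adjusted p = 0.018) that did not pass without either FLAG-WT library (adjusted p = 0.079 and 0.090) or without K19R replicate 1 (adjusted p = 0.11).

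Wnt8a peaked in K19R cells at day 2, with 7.80 and 7.37 CPM against 0.992 and 0.759 CPM in FLAG-WT. The 2 lines did not overlap there and the log2 difference was 3.12 ± 0.28 (adjusted p = 1.2e-09). At day 6 it had fallen to 0.361 and 0.845 CPM in K19R and 0.129 and 0.234 CPM in FLAG-WT, a log2 difference of 1.80 ± 0.58 (adjusted p = 0.0099). That call did not pass without FLAG-WT replicate 1, at 1.38 (adjusted p = 0.13), or without K19R replicate 2, at 1.03 (adjusted p = 0.25). At day 10 FLAG-WT had 1 count over both libraries and K19R 48, a ratio of 37.3 (95% interval 6.39 to 1505), where the interval covers counting error only. The fitted log2 difference was 4.97 ± 0.80 (adjusted p = 7.8e-06), and it was 4.08 without FLAG-WT replicate 1 and 7.62 without FLAG-WT replicate 2.

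Wnt11 (chromosome 7, 98835112 to 98855195, plus strand), a ligand known mostly for signalling without beta-catenin in cell movement, went the other way. It rose in FLAG-WT cells from 0.908 and 1.19 CPM at day 0 to 4.79 and 3.90 CPM at day 2 and 17.6 and 16.9 CPM at day 6. In K19R cells it went from 2.51 and 2.00 CPM at day 0 to 0.546 and 0.713 CPM at day 2 and 3.81 and 4.82 CPM at day 6. K19R cells thus lay above FLAG-WT at day 0 and below it at days 2 and 6, with no overlap at any of the 3 days. The log2 difference was 1.11 ± 0.26 (adjusted p = 0.0065) at day 0, -2.77 ± 0.25 (adjusted p = 1.1e-09) at day 2 and -1.99 ± 0.16 (adjusted p = 8.4e-11) at day 6. At day 10 the levels were 11.7 and 14.2 CPM in FLAG-WT and 6.98 and 7.55 CPM in K19R cells, a log2 difference of -0.83 ± 0.16 (adjusted p = 8.0e-05). The day 0 call did not pass without FLAG-WT replicate 1, at 0.93 (adjusted p = 0.10), or K19R replicate 1, at 0.93 (adjusted p = 0.13).

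Wnt9a (chromosome 11, 59306928 to 59333552, plus strand) was the ligand with the highest level per kilobase of exon in both lines at day 6, at 10.4 ± 0.0461 and 11.6 ± 1.38 CPM per kb (mean ± SD, n = 2). In FLAG-WT cells it rose from 4.14 and 4.69 CPM at day 2 to 34.8 and 34.6 CPM at day 6. In K19R cells it rose from 2.41 and 1.97 CPM to 35.3 and 41.8 CPM over the same days. At day 10 it was at 44.9 and 48.9 CPM in FLAG-WT but at 9.53 and 10.3 CPM in K19R cells. The lines were apart at days 2 and 10 and differed with log2 differences of -1.01 ± 0.17 (adjusted p = 1.9e-05) and -2.24 ± 0.11 (adjusted p = 7.0e-15). At day 6 the difference of 0.15 ± 0.10 did not pass (adjusted p = 0.19), but with library totals it was 0.51 (adjusted p = 7.7e-05).

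Wnt7b, a ligand of epithelia and the nervous system, rose later. Its level was 15.8 and 12.96 CPM in FLAG-WT and 12.6 and 12.8 CPM in K19R cells at day 6, and 40.3 and 44.7 against 13.3 and 10.9 CPM at day 10. The FLAG-WT libraries of day 10 lay above those of day 6 while the K19R libraries of both days overlapped, and the log2 difference at day 10 was -1.81 ± 0.12 (adjusted p = 2.2e-12). At day 0 it stood at 3.18 and 3.24 CPM against 2.14 and 1.77 CPM, a log2 difference of -0.70 ± 0.20 (adjusted p = 0.024) that did not pass when any 1 of the 4 libraries was left out (adjusted p = 0.067 to 0.19). Wnt7a, its close relative, was at 0.216 and 0.172 CPM against 0.674 and 1.29 CPM at day 2 and at 2.66 and 3.37 against 0.279 and 0.339 CPM at day 10. It was higher in K19R cells at day 2, with a log2 difference of 2.32 ± 0.53 (adjusted p = 0.00089), and lower at day 10, with a log2 difference of -3.27 ± 0.44 (adjusted p = 6.0e-07), with no overlap at either day. At day 6, 0.386 and 0.117 against 0.963 and 0.493 CPM gave 1.40 ± 0.56 (adjusted p = 0.036), which did not pass without FLAG-WT replicate 2, at 0.88 (adjusted p = 0.25), without K19R replicate 1, at 0.86 (adjusted p = 0.32), or with DESeq2 (adjusted p = 0.052). Without FLAG-WT replicate 1 it was 2.57 (adjusted p = 0.021).

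Wnt5a, a ligand that mostly signals without beta-catenin, was at 3.79 and 3.83 CPM in FLAG-WT and 1.44 and 1.73 CPM in K19R cells at day 2. The K19R libraries were the lower, with a log2 difference of -1.26 ± 0.25 (adjusted p = 0.00019). It rose in both lines to 20.3 and 11.7 against 18.3 and 17.6 CPM at day 10, where the lines overlapped and the difference of 0.17 ± 0.17 did not pass (adjusted p = 0.42). Without FLAG-WT replicate 1 it was 0.62 (adjusted p = 0.0040), and with library totals 0.47 (adjusted p = 0.028). Its relative Wnt5b was at 0.574 and 0.321 CPM against 1.72 and 1.65 CPM at day 10. K19R cells were higher without overlap, with a log2 difference of 1.90 ± 0.46 (adjusted p = 0.00090).

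Wnt4, which acts in kidney and gonad, rose from under 1 CPM in 7 of the 8 libraries of days 0 and 2 to 7.43 and 5.20 CPM in FLAG-WT and 4.33 and 3.77 CPM in K19R cells at day 6. By day 10 it was at 7.57 and 9.21 against 4.19 and 3.56 CPM, with both K19R libraries lower and a log2 difference of -1.11 ± 0.25 (adjusted p = 0.00046). The day 6 difference was -0.66 ± 0.25 (adjusted p = 0.027), and it did not pass with library totals, at -0.30 (adjusted p = 0.32), without FLAG-WT replicate 1, at -0.36 (adjusted p = 0.36), or without K19R replicate 2, at -0.56 (adjusted p = 0.14). At day 2 Wnt4 was at 0.345 and 0.552 against 0.867 and 1.19 CPM, and its difference of 1.15 ± 0.44 (adjusted p = 0.040) was lost without either FLAG-WT library (adjusted p = 0.21 and 0.062) or without K19R replicate 2 (adjusted p = 0.21). Wnt6, known from surface ectoderm and extraembryonic endoderm, was at 4.14 and 5.35 CPM in FLAG-WT and 1.86 and 2.38 CPM in K19R cells at day 2. That was lower in K19R without overlap, with a log2 difference of -1.17 ± 0.28 (adjusted p = 0.0015). At day 6, 0.472 and 1.23 against 0.482 and 0.317 CPM gave -1.02 ± 0.51 (adjusted p = 0.089), and -1.62 (adjusted p = 0.014) without FLAG-WT replicate 1.

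The other ligands stayed near or under 1 CPM. Wnt9b was at 0.313 and 0.268 CPM in FLAG-WT and 0.957 and 1.10 CPM in K19R cells at day 10, higher in K19R with a log2 difference of 1.81 ± 0.52 (adjusted p = 0.0045). Wnt10b was at 0.515 and 0.292 against 0.923 and 1.06 CPM at day 6 and at 0.783 and 1.07 against 0.359 and 0.212 CPM at day 10. Its log2 difference turned from 1.24 ± 0.49 (adjusted p = 0.031) at day 6 to -1.67 ± 0.53 (adjusted p = 0.0085) at day 10, with no overlap at either day. Neither call was stable. That of day 6 was lost without FLAG-WT replicate 2 (adjusted p = 0.21), without either K19R library (0.068 and 0.14), without the filter (0.058) and with DESeq2 (0.12), and that of day 10 without FLAG-WT replicate 2 (0.089) or K19R replicate 2 (0.087).

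Wnt2b was at 0.0859 and 0.175 CPM against 0.482 and 0.810 CPM at day 6, a log2 difference of 2.35 ± 0.82 (adjusted p = 0.017). It was lost without FLAG-WT replicate 1, at 1.87 (adjusted p = 0.15), or K19R replicate 2, at 1.91 (adjusted p = 0.12). Wnt8b had 0 counts in both FLAG-WT libraries and 9 and 5 counts in the K19R libraries at day 6, which is at least 1.77-fold higher when each FLAG-WT library is set to 3 counts (adjusted p = 0.0040 for the fitted difference). Wnt16 had 24 counts over the FLAG-WT libraries and 1 over those of K19R at day 10. That is a ratio of 30.9 (95% interval 5.03 to 1269), and the fitted log2 difference was -4.64 ± 0.97 (adjusted p = 0.00021), or -6.96 without K19R replicate 1 and -3.83 without K19R replicate 2. Wnt3a, close in sequence to Wnt3, was at 1.32 and 1.15 against 1.62 and 1.72 CPM at day 0 and at most 0.414 CPM later, and Wnt10a was at most 0.431 CPM in any FLAG-EED library.

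**Figure D3:**
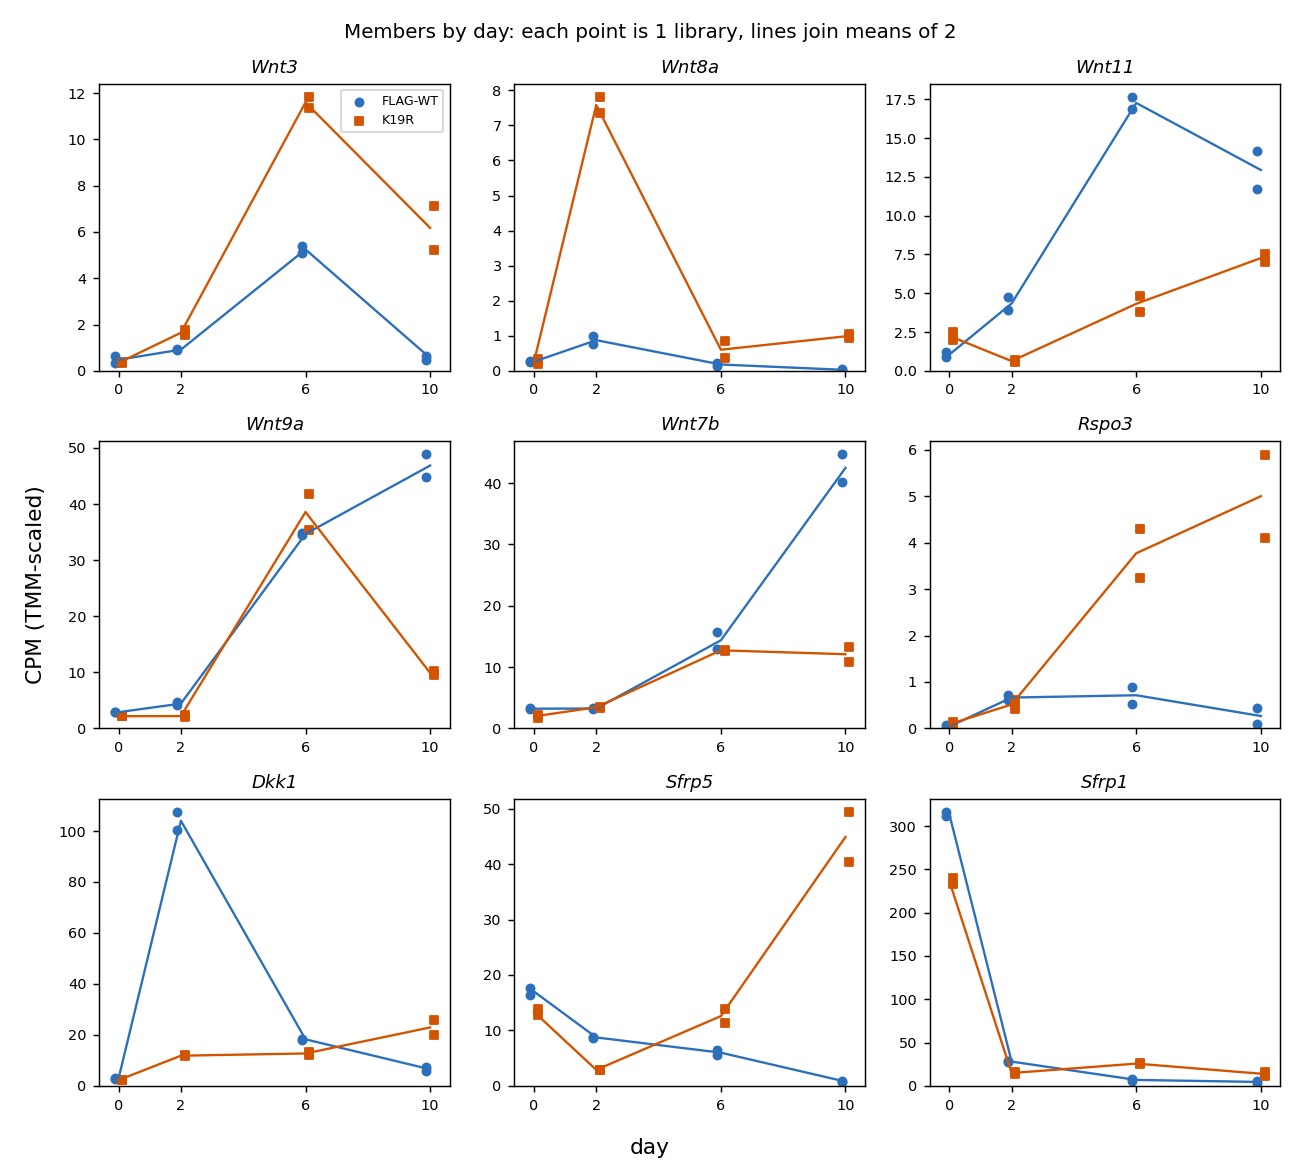
CPM by day for Wnt3, Wnt8a, Wnt11, Wnt9a, Wnt7b, Rspo3, Dkk1, Sfrp5 and Sfrp1, with 1 point per library and lines through the means of 2 libraries for FLAG-WT (circles) and K19R (squares). Wnt3, Rspo3 and Sfrp5 are higher in K19R cells at day 10, Wnt9a and Wnt7b lower, and Dkk1 reaches 107 and 101 CPM in FLAG-WT at day 2 against 11.5 and 12.2 CPM in K19R cells.

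Of the 10 Frizzled receptors, all of which passed the filter, 5 were higher and 1 lower in K19R cells at day 2, 7 to 2 at day 6 and 7 to 2 at day 10 (higher to lower). Those shares were 60%, 90% and 90%, beside 41.8%, 58.5% and 58.4% of all genes, and the excess was not tested. With library totals the lower call of Fzd7 at day 10 was lost. The receptors with the highest level per kilobase were Fzd5 and Fzd10 in mESCs and Fzd7 in embryoid bodies, in both lines. Fzd5 was at 23.1 ± 0.447 and Fzd10 at 14.05 ± 0.607 CPM per kb in FLAG-WT mESCs, and Fzd7 at 47.6 ± 0.512 CPM per kb at day 2. The K19R means were 20.5 ± 0.119, 12.9 ± 0.202 and 61.6 ± 0.823 CPM per kb.

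Fzd7 (chromosome 1, 59482424 to 59486955, plus strand), the Frizzled best known from pluripotent cells, was at 10.03 and 9.65 CPM in FLAG-WT and 8.49 and 8.47 CPM in K19R mESCs. At day 2 it was at 217 and 214 against 282 and 277 CPM, and at day 6 at 211 and 210.0 against 143 and 143 CPM. K19R cells were the higher at day 2, with a log2 difference of 0.37 ± 0.07 (adjusted p = 4.1e-05), and the lower at day 6, with a log2 difference of -0.56 ± 0.07 (adjusted p = 5.9e-08), with no overlap at either day. At day 10 it was at 179 and 172 against 137 and 158 CPM, a log2 difference of -0.25 ± 0.07 (adjusted p = 0.0024) that did not pass without K19R replicate 1, at -0.14 (adjusted p = 0.11), and turned to 0.05 (adjusted p = 0.47) with library totals. Fzd5, with reads uncertain over 17.8% of its exonic bases, fell in both lines from 162 and 158 against 141 and 142 CPM at day 0 to 34.9 and 36.7 against 34.4 and 31.4 CPM at day 2. By day 10 it stood at 59.5 and 57.3 CPM in FLAG-WT and 36.6 and 33.04 CPM in K19R cells, lower in K19R with a log2 difference of -0.75 ± 0.09 (adjusted p = 1.3e-07).

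Fzd2 was at 18.1 and 16.4 CPM in FLAG-WT and 46.3 and 45.4 CPM in K19R cells at day 2 and at 31.99 and 28.9 against 75.3 and 85.4 CPM at day 6. K19R cells were higher without overlap, with log2 differences of 1.42 ± 0.09 (adjusted p = 2.4e-12) and 1.40 ± 0.09 (adjusted p = 5.7e-13). At day 10 it was at 44.8 and 46.4 against 52.02 and 56.9 CPM, a difference of 0.26 ± 0.09 (adjusted p = 0.015). That small difference was lost with relative log expression factors, at 0.19 (adjusted p = 0.062), with DESeq2, at 0.19 (adjusted p = 0.087), with only the 2 groups in the fit, at 0.23 (adjusted p = 0.070), without FLAG-WT replicate 1, at 0.23 (adjusted p = 0.071), or without K19R replicate 2, at 0.19 (adjusted p = 0.13).

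Fzd8, Fzd9 and Fzd10 were low in embryoid bodies and higher in K19R cells at all 3 later days. Fzd8 was at 4.66 and 4.48 against 9.21 and 8.49 CPM at day 2, 0.859 and 0.584 against 1.81 and 1.58 CPM at day 6 and 2.19 and 1.77 against 4.95 and 3.77 CPM at day 10. Its libraries did not overlap between the lines on these days, and the log2 differences were 0.95, 1.19 and 1.14 (adjusted p = 4.8e-05, 0.0014 and 7.8e-05). Fzd9 was at 1.37 and 1.11 against 2.57 and 2.75 CPM at day 6, a difference of 1.08 ± 0.25 (adjusted p = 0.00058), with 0.79 at day 2 (adjusted p = 0.00097). At day 10, 0.313 and 0.642 against 0.957 and 1.19 CPM gave 1.16 ± 0.37 (adjusted p = 0.0097). The day 10 call was lost without FLAG-WT replicate 1, at 0.73 (adjusted p = 0.16), without K19R replicate 2, at 1.00 (adjusted p = 0.065), and with only the 2 groups in the fit (adjusted p = 0.051), and it was 1.76 (adjusted p = 0.0057) without FLAG-WT replicate 2.

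Fzd10 fell in both lines after day 0, from 44.3 and 47.04 CPM in FLAG-WT and 41.6 and 42.5 CPM in K19R cells to 5.52 and 4.69 CPM in FLAG-WT and 9.66 and 8.65 CPM in K19R cells at day 2, where K19R was higher with a log2 difference of 0.85 ± 0.17 (adjusted p = 0.00018). At day 6 it had a log2 difference of 0.82 ± 0.26 (adjusted p = 0.0088), a call lost without FLAG-WT replicate 2, at 0.49 (adjusted p = 0.16), or K19R replicate 1, at 0.43 (adjusted p = 0.23). At day 10 it had a log2 difference of 0.58 ± 0.19 (adjusted p = 0.012), a call lost without FLAG-WT replicate 2, at 0.40 (adjusted p = 0.15), or K19R replicate 2, at 0.52 (adjusted p = 0.062).

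Fzd1 was at 0.859 and 0.467 against 1.89 and 3.49 CPM at day 6 and at 2.14 and 2.19 against 8.06 and 6.32 CPM at day 10. K19R libraries were above both FLAG-WT libraries on each day, with log2 differences of 1.97 ± 0.36 (adjusted p = 4.5e-05) and 1.73 ± 0.27 (adjusted p = 5.8e-06). Fzd6, which has a part in planar polarity, was at 11.3 and 7.87 CPM in FLAG-WT and 26.9 and 32.2 CPM in K19R cells at day 10, higher with a log2 difference of 1.62 ± 0.15 (adjusted p = 6.1e-10). Its smaller differences of -0.37 ± 0.14 (adjusted p = 0.039) at day 2 and 0.54 ± 0.16 (adjusted p = 0.0064) at day 6 were lost without FLAG-WT replicate 2 (adjusted p = 0.27) or K19R replicate 2 (0.24) at day 2, and without FLAG-WT replicate 1 (0.063) or K19R replicate 1 (0.098) at day 6. At day 2 the call was lost with relative log expression factors (0.051) and DESeq2 (0.087) too.

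Fzd3 went from lower to higher in K19R cells. It was at 8.55 and 7.27 against 4.80 and 4.75 CPM at day 0, at 2.66 and 3.09 against 6.46 and 5.60 CPM at day 6 and at 3.55 and 3.96 against 7.10 and 5.09 CPM at day 10, and the lines did not overlap on these days. The log2 differences were -0.73 ± 0.17 (adjusted p = 0.0055), 1.07 ± 0.19 (adjusted p = 2.9e-05) and 0.70 ± 0.19 (adjusted p = 0.0023). The day 0 call was lost without FLAG-WT replicate 1, at -0.61 (adjusted p = 0.094), or K19R replicate 1, at -0.74 (adjusted p = 0.052), and that of day 10 without K19R replicate 1, at 0.45 (adjusted p = 0.081). Fzd4, the receptor that also binds norrin, peaked in FLAG-WT cells at day 6 with 43.3 and 42.1 CPM, when K19R cells had 14.5 and 15.6 CPM. It was lower there with a log2 difference of -1.50 ± 0.13 (adjusted p = 4.1e-10), and the lines overlapped at days 2 and 10.

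Lrp5 and Lrp6, the co-receptors to which Dkk1 binds, were both higher at days 6 and 10 than at day 0 in each line. The rise was smaller in K19R cells, while at day 2 Lrp5 alone was higher than at day 0. Lrp5 (chromosome 19, 3584828 to 3686564, minus strand) went from 50.7 and 47.6 CPM at day 0 to 376 and 393 CPM at day 6 and 439 and 416 CPM at day 10 in FLAG-WT cells. In K19R cells it went from 43.5 and 43.98 CPM at day 0 to 188 and 198 CPM at day 6 and 228 and 256 CPM at day 10. All K19R libraries lay below those of FLAG-WT at days 6 and 10, with log2 differences of -0.99 ± 0.07 (adjusted p = 1.2e-11) and -0.82 ± 0.07 (adjusted p = 5.0e-10). At day 2, 83.8 and 79.2 against 109 and 93.6 CPM, K19R cells were higher with a log2 difference of 0.32 ± 0.08 (adjusted p = 0.0015), a call lost without K19R replicate 1, at 0.20 (adjusted p = 0.062).

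Lrp6 was at 90.8 and 96.7 CPM in FLAG-WT and 95.2 and 96.6 CPM in K19R mESCs. At day 2 it was at 86.7 and 87.3 against 88.5 and 74.9 CPM, which was lower than at day 0 in K19R cells, with a log2 change of -0.23 ± 0.08 (adjusted p = 0.011), a call lost without K19R replicate 2 of day 0 (adjusted p = 0.068) or of day 2, at -0.11 (adjusted p = 0.29). The change of -0.11 ± 0.08 in FLAG-WT cells did not pass (adjusted p = 0.24), but did with only the compared groups in the fit (adjusted p = 0.037). At day 6 it was at 191 and 198 against 114 and 119 CPM, and at day 10 at 211 and 201 against 130.4 and 145 CPM. The lines overlapped at days 0 and 2 and were apart at days 6 and 10, with log2 differences of -0.74 ± 0.07 (adjusted p = 3.5e-09) and -0.58 ± 0.07 (adjusted p = 2.4e-07). The interaction of genotype and day, relative to day 0, was -0.82 ± 0.11 (adjusted p = 8.5e-07) for Lrp5 and -0.77 ± 0.11 (adjusted p = 1.4e-06) for Lrp6 at day 6. It was -0.65 and -0.61 at day 10 (adjusted p = 2.4e-05 and 3.5e-05). At day 2 it was 0.48 ± 0.11 (adjusted p = 0.0018) for Lrp5, a larger rise in K19R cells, and -0.12 ± 0.11 (adjusted p = 0.44) for Lrp6.

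**Figure D4:**
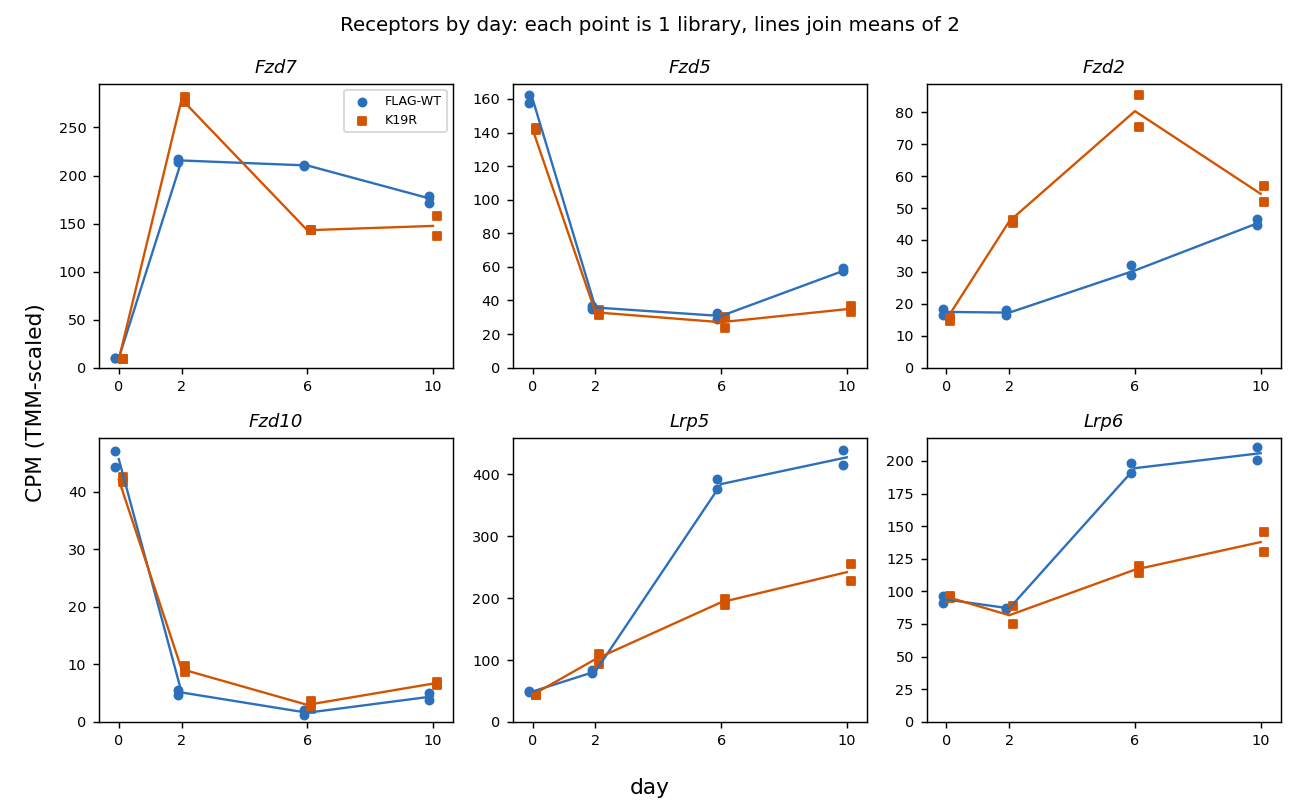
CPM by day for Fzd7, Fzd5, Fzd2, Fzd10, Lrp5 and Lrp6, with 1 point per library and lines through the means of 2 libraries for FLAG-WT (circles) and K19R (squares). Fzd7 takes the place of Fzd5 and Fzd10 after day 0 in both lines, Fzd2 is higher in K19R cells at days 2 and 6, and Lrp5 and Lrp6 are lower in K19R cells at days 6 and 10.

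Of the 4 R-spondins, 1 was higher in K19R cells at day 2, 2 were higher and 1 lower at day 6, and 1 was higher and 1 lower at day 10. Rspo1 had the highest level per kilobase of the 4 in every FLAG-EED group, but its share of their summed level fell in K19R cells from 90.4% at day 2 to 49.8% at day 10, while in FLAG-WT cells it went from 73.5% to 96.9%. Rspo1 was at 2.85 and 3.07 against 7.38 and 5.94 CPM at day 2 and at 10.8 and 14.3 against 3.87 and 3.14 CPM at day 10. It was higher in K19R at day 2, with a log2 difference of 1.17 ± 0.20 (adjusted p = 3.2e-05), and lower at day 10, with a log2 difference of -1.84 ± 0.19 (adjusted p = 8.7e-09), with no overlap. At day 6, 9.15 and 9.93 against 6.34 and 5.99 CPM gave -0.63 ± 0.18 (adjusted p = 0.0045), which did not pass with library totals, at -0.27 (adjusted p = 0.21).

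Rspo3 (chromosome 10, 29452416 to 29535867, minus strand), known from the primitive streak and its mesoderm, was at 0.902 and 0.525 CPM in FLAG-WT and 3.25 and 4.30 CPM in K19R cells at day 6. Its day 10 values were 0.104 and 0.428 against 4.11 and 5.90 CPM. Every K19R library lay above those of FLAG-WT on both days, and the log2 difference was 2.35 ± 0.36 (adjusted p = 3.9e-06) and 4.21 ± 0.44 (adjusted p = 7.8e-09). The day 10 difference rests on few FLAG-WT counts, 2 and 8, and ran from 3.53 without FLAG-WT replicate 1 to 5.52 without FLAG-WT replicate 2. Rspo4 was at 0.816 and 0.584 against 3.77 and 4.08 CPM at day 6, higher in K19R cells with a log2 difference of 2.45 ± 0.38 (adjusted p = 4.1e-06). At day 10 its values of 0.104 and 0.482 against 0.598 and 0.339 CPM overlapped. Rspo2 was highest at day 0 in each FLAG-EED line, at 3.01 and 3.68 against 3.06 and 2.28 CPM. It had 0 counts in FLAG-WT and 2 in K19R cells over both libraries at each of days 6 and 10. The wildtype mESCs, grown with LIF but not 2i, had only 2 counts of it over both libraries.

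Of the 3 Lgr receptors, 1 was higher in K19R cells at day 2, 1 was higher and 1 lower at day 6, and 2 were higher at day 10. Lgr4 held at least 93.9% of their summed level per kilobase in every FLAG-EED group. It was at 28.7 and 29.97 against 25.8 and 28.3 CPM at day 0, at 113 and 117 against 165 and 153 CPM at day 2, and at 69.6 and 74.7 against 46.99 and 47.4 CPM at day 6. K19R cells were higher at day 2, with a log2 difference of 0.47 ± 0.07 (adjusted p = 5.7e-06), and lower at day 6, with a log2 difference of -0.61 ± 0.08 (adjusted p = 1.1e-07), without overlap. At day 10 the lines overlapped, at -0.08 ± 0.07 (adjusted p = 0.40), and with library totals the sign turned to 0.23 (adjusted p = 0.0093). Lgr6 was at 0.644 and 0.584 against 3.13 and 3.03 CPM at day 6, higher in K19R cells with a log2 difference of 2.31 ± 0.39 (adjusted p = 1.4e-05). Its day 10 values of 0.209 and 0.161 against 1.48 and 0.382 CPM gave 2.32 ± 0.62 (adjusted p = 0.0025), which rests on K19R replicate 1: without it the difference was 1.03 (adjusted p = 0.25), and it was 2.96 (adjusted p = 3.7e-05) without K19R replicate 2. Lgr5, a target of the pathway and a stem cell marker in the gut, had 3 counts in FLAG-WT and 18 in K19R cells at day 10, a ratio of 4.67 (95% interval 1.36 to 24.7). Its adjusted p of 0.045 rose to 0.052 to 0.39 under 6 alternatives, among them DESeq2 (0.11), no filter (0.066) and the fits without FLAG-WT replicate 2, at 1.23 (adjusted p = 0.33), or K19R replicate 2, at 1.28 (adjusted p = 0.39). Without FLAG-WT replicate 1 it was 6.23 (adjusted p = 0.017).

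Dkk1 (chromosome 19, 30545863 to 30549665, minus strand), the Dickkopf protein made by the anterior endoderm of the embryo, was highest at day 2 in FLAG-WT cells and at day 10 in K19R cells. In FLAG-WT cells it went from 3.22 and 2.77 CPM at day 0 to 107 and 101 CPM at day 2, and back to 18.1 and 18.4 CPM at day 6 and 7.26 and 5.73 CPM at day 10. In K19R cells it went from 2.14 and 2.37 CPM at day 0 to 11.5 and 12.2 CPM at day 2, 13.2 and 12.2 CPM at day 6 and 20.1 and 25.7 CPM at day 10. K19R libraries were thus below FLAG-WT at days 2 and 6 and above it at day 10. The log2 difference was -3.13 ± 0.11 (adjusted p = 9.6e-18) at day 2, -0.52 ± 0.12 (adjusted p = 0.00052) at day 6 and 1.82 ± 0.13 (adjusted p = 1.1e-11) at day 10. With library totals the day 6 difference was -0.16 (adjusted p = 0.25). At day 2 the 14 markers of extraembryonic endoderm summed to 4247 and 4309 CPM in FLAG-WT and 440.2 and 363 CPM in K19R cells, 13 of them passed as lower in K19R and none was at 0, and their part in the Dkk1 difference was not tested.

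Dkk3, a divergent family member, was at 12.96 and 12.8 CPM in FLAG-WT and 19.6 and 20.2 CPM in K19R cells at day 0, and at 10.6 and 11.5 against 5.90 and 7.34 CPM at day 10. It was higher in K19R at day 0, with a log2 difference of 0.63 ± 0.12 (adjusted p = 0.0012), and lower at day 10, with a log2 difference of -0.74 ± 0.14 (adjusted p = 7.1e-05), each without overlap. The day 6 difference of -0.44 ± 0.14 (adjusted p = 0.011) was lost with library totals, at -0.08 (adjusted p = 0.63), without FLAG-WT replicate 1, at -0.30 (adjusted p = 0.18), or K19R replicate 1, at -0.42 (adjusted p = 0.055). Dkk2 and Dkk4 had 12 and 3 counts over all FLAG-EED libraries.

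The antagonists that bind Wnt were, after day 2, nearly all higher in K19R cells: 5 of the 6 at day 6, with Frzb lower, and 5 of the 6 at day 10, with no call for Wif1. At day 2, 1 was higher and 2 were lower. The shares that passed at days 2, 6 and 10 were 50%, 100% and 83.3%, beside 41.8%, 58.5% and 58.4% of all genes. Sfrp5 (chromosome 19, 42197971 to 42202252, minus strand), an Sfrp of the anterior visceral endoderm, had the largest difference of any member at day 10. FLAG-WT cells went down from 17.7 and 16.4 CPM at day 0 to 8.71 and 8.76 CPM at day 2, 6.48 and 5.49 CPM at day 6 and 0.888 and 0.642 CPM at day 10. K19R cells went from 12.8 and 13.9 CPM down to 2.89 and 2.88 CPM at day 2 and then up to 11.4 and 13.8 CPM at day 6 and 40.4 and 49.4 CPM at day 10. The lines were apart on all 4 days, although the day 0 difference of -0.35 ± 0.13 did not pass (adjusted p = 0.073). It was -1.60 ± 0.16 (adjusted p = 7.0e-09) at day 2, 1.06 ± 0.14 (adjusted p = 5.7e-07) at day 6 and 5.86 ± 0.19 (adjusted p = 1.9e-18) at day 10.

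Sfrp1 was by far the most abundant of these antagonists in mESCs, with 78.6% of their summed level per kilobase in FLAG-WT and 72.7% in K19R cells. It fell from 312 and 316 CPM in FLAG-WT and 240.4 and 233 CPM in K19R cells at day 0 to 28.3 and 27.8 against 13.96 and 15.6 CPM at day 2. It went on to 7.64 and 6.07 CPM in FLAG-WT but 24.8 and 26.6 CPM in K19R cells at day 6, and to 3.81 and 5.14 against 16.3 and 11.8 CPM at day 10. K19R libraries were below FLAG-WT on the first 2 of these days and above it on the last 2. The log2 differences were -0.41, -0.92, 1.89 and 1.66 (adjusted p = 0.0028, 1.4e-07, 2.6e-12 and 9.5e-10), and that of day 0 was lost without K19R replicate 2 (adjusted p = 0.051).

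Sfrp2 and Sfrp4 were higher in K19R than in FLAG-WT cells at day 6 and day 10, and Sfrp2 at day 2 too. Their interaction of genotype and day, from day 0 to day 10, was 1.36 ± 0.35 (adjusted p = 0.0026) and 2.16 ± 0.31 (adjusted p = 2.6e-06). Sfrp2, with reads uncertain over 16.1% of its exonic bases, was at 5.82 and 5.66 against 12.8 and 14.8 CPM at day 2, 3.35 and 2.45 against 7.14 and 8.27 CPM at day 6 and 0.418 and 0.696 against 1.68 and 1.78 CPM at day 10. K19R was higher on each, with log2 differences of 1.27 ± 0.14 (adjusted p = 6.1e-08), 1.39 ± 0.17 (adjusted p = 1.5e-07) and 1.63 ± 0.32 (adjusted p = 0.00011). Sfrp4 was at 6.01 and 6.07 against 8.43 and 9.12 CPM at day 6 and at 0.783 and 0.535 against 3.11 and 3.10 CPM at day 10, higher in K19R with log2 differences of 0.54 ± 0.15 (adjusted p = 0.0033) and 2.22 ± 0.27 (adjusted p = 1.4e-07).

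Frzb was at 4.42 and 4.11 against 7.42 and 8.15 CPM at day 0, at 2.36 and 3.44 against 1.56 and 1.51 CPM at day 6 and at 5.17 and 6.37 against 12.4 and 13.7 CPM at day 10. K19R cells were higher, lower and higher again, with log2 differences of 0.86 ± 0.18 (adjusted p = 0.0019), -0.89 ± 0.24 (adjusted p = 0.0024) and 1.18 ± 0.17 (adjusted p = 1.7e-06), and the lines did not overlap on these days. The day 6 call was lost with library totals, at -0.53 (adjusted p = 0.056), or without FLAG-WT replicate 2, at -0.63 (adjusted p = 0.063). Wif1 stayed under 1 CPM. At day 0 it had 3 and 2 counts in FLAG-WT and 17 and 12 counts in K19R libraries, a difference of 2.50 ± 0.69 (adjusted p = 0.020) that was lost when any 1 of the 4 libraries was left out (adjusted p = 0.088 to 0.21). At day 6 it had 2 counts over the FLAG-WT libraries and 19 over those of K19R, a ratio of 7.20 (95% interval 1.74 to 63.8) with a fitted difference of 2.73 ± 0.91 (adjusted p = 0.012), which was lost without either FLAG-WT library (adjusted p = 0.11 and 0.052) and with DESeq2 (0.054).

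Other cells could hold these genes, and their markers moved too. The endoderm markers summed to 23415 and 24101 CPM in FLAG-WT and 9156 and 8819.7 CPM in K19R cells at day 6, with 13 of 14 lower in K19R, and to 32972 and 33086 against 22913 and 23382 CPM at day 10, with 4 higher and 4 lower. The 7 cardiac and mesenchymal markers summed to 24.4 and 24.9 against 75.1 and 91.1 CPM at day 6, with 5 higher and 2 lower in K19R and Col3a1 at 0 in FLAG-WT, and to 17.6 and 19.003 against 62.6 and 71.4 CPM at day 10, with 4 higher and 2 lower.

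The 9 streak and mesoderm markers, of which 8 were tested, summed to 259 and 264 against 47.96 and 45.4 CPM at day 2 (3 higher, 3 lower) and to 123 and 119 against 191 and 206 CPM at day 10 (5 higher, 2 lower). At day 6 they summed to 157 and 142 against 70.5 and 69.6 CPM (2 higher, 1 lower). Neural markers, 6 of 8 tested, summed to 73.2 and 62.4 against 99.1 and 103 CPM at day 6 (3 higher, 1 lower) and to 182 and 159.8 against 67.2 and 60.7 CPM at day 10 (3 higher, 2 lower), with Dcx at 0 in FLAG-WT and Neurog2 at 0 in K19R cells. Pluripotency markers summed to 2458 and 2449 against 1656 and 1778 CPM at day 2, when 7 of 10 were lower in K19R, to 744 and 691 against 855 and 784 CPM at day 6, when 6 were higher and 4 lower, and to 908 and 865 against 1205 and 1092 CPM at day 10, when 7 were higher and 3 lower. The part of these cell types in the differences of the Wnt genes was not tested.

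Against day 0, members both rose and fell in each line. These comparisons share the day 0 libraries of their line, and the 2 lines are given side by side only. In FLAG-WT cells 17 members rose and 11 fell by day 2, where 56.1% of all genes passed, 19 and 16 by day 6 (76.1%), and 22 and 15 by day 10 (77.9%). In K19R cells 20 rose and 12 fell by day 2 (56.4%), 22 and 11 by day 6 (72.3%) and 22 and 11 by day 10 (73.9%). Shares of 63.6% to 84.1% in FLAG-WT and 72.7% to 75% in K19R cells stood beside those of all genes, with the widest gap at day 2 in K19R cells (72.7%).

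On the log2 scale Fzd7 changed by 4.45 ± 0.08 (adjusted p = 5.8e-24) from day 0 to day 2 in FLAG-WT and by 5.04 ± 0.09 (adjusted p = 1.4e-24) in K19R cells, so that both lines rose. Fzd10 changed over the same days by -3.17 ± 0.15 (adjusted p = 1.4e-15) in FLAG-WT cells. Sfrp1 changed by -3.48 ± 0.10 (adjusted p = 2.9e-20) in FLAG-WT and -4.00 ± 0.11 (adjusted p = 4.4e-21) in K19R cells, a fall in both. Frzb likewise fell, with log2 changes of -5.15 ± 0.36 (adjusted p = 2.5e-12) and -5.04 ± 0.28 (adjusted p = 1.8e-14). Dkk1 rose by 5.12 ± 0.14 (adjusted p = 5.0e-21) in FLAG-WT cells and by 2.40 ± 0.16 (adjusted p = 9.0e-13) in K19R cells on the log2 scale. Wnt8a rose by 4.91 ± 0.35 (adjusted p = 4.4e-12) in K19R cells to day 2.

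To day 6, Wnt11 rose by 4.03 ± 0.21 (adjusted p = 1.0e-15) in FLAG-WT cells and Wnt3 by 5.03 ± 0.27 (adjusted p = 6.2e-15) in K19R cells, both on the log2 scale. Wnt9b, which starts kidney tubules, was at 0.0413 and 0.0395 CPM in FLAG-WT and 0.0738 and 0 CPM in K19R mESCs and at 1.55 and 1.11 against 1.16 and 1.44 CPM at day 6. It rose in both lines, with fitted log2 changes of 4.89 ± 0.69 (adjusted p = 5.1e-07) and 4.83 ± 0.68 (adjusted p = 5.8e-07). Each rests on 2 counts at day 0, and the ratios were 33.7 (95% interval 8.89 to 285) in FLAG-WT and 31.9 (95% interval 8.51 to 269) in K19R cells. Rspo2 was at least 22.6-fold lower at day 6 than at day 0 in FLAG-WT cells, against 3 counts per library. In K19R cells it was lower by a ratio of 72.4 (95% interval 19.7 to 604), and its fitted log2 change of -5.98 ± 0.63 (adjusted p = 8.4e-09) was -9.04 without K19R replicate 1 of day 6 and -4.98 without replicate 2.

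To day 10, Sfrp2 and Sfrp4 fell in FLAG-WT cells, with log2 changes of -4.56 ± 0.23 (adjusted p = 6.9e-16) and -4.29 ± 0.22 (adjusted p = 9.3e-16), and Fzd9 fell with -4.36 ± 0.26 (adjusted p = 2.7e-14). In K19R cells Rspo3 and Wnt5b rose to day 10, with log2 changes of 5.83 ± 0.51 (adjusted p = 8.6e-11) and 3.71 ± 0.55 (adjusted p = 1.2e-06).

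Whether the genotype difference itself changed from day 0 was tested as an interaction, and these tests share the day 0 libraries. It changed for 14 members upward and 5 downward at day 2 (27.1% of all genes passed), 16 and 8 at day 6 (44.5%) and 17 and 9 at day 10 (45.0%). Those shares of members were 43.2%, 54.5% and 59.1%. Frizzled receptors made up 5, 7 and 8 of the upward changes and 0, 2 and 1 of the downward ones.

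Wildtype mESCs in LIF were compared with FLAG-WT mESCs in LIF and 2i, where the line, the medium and the count table cannot be told apart. In wildtype cells 11 members were higher and 15 lower, beside 64.9% of all genes passing. Levels here are on the scale of the fit of all 18 libraries. Fzd7 was at 126 and 127 CPM in wildtype and 10.1 and 9.75 CPM in FLAG-WT mESCs, higher with a log2 difference of 3.67 ± 0.08 (adjusted p = 2.1e-23), and Lgr4 at 139 and 141 against 28.98 and 30.3 CPM, higher with a log2 difference of 2.24 ± 0.07 (adjusted p = 1.0e-19). For both genes the wildtype libraries lay above those of FLAG-WT mESCs without overlap. In the other direction Sfrp1 was at 36.5 and 38.99 against 315 and 319 CPM, lower with a log2 difference of -3.06 ± 0.10 (adjusted p = 2.7e-20), and Fzd10 at 9.55 and 9.25 against 44.7 and 47.6 CPM, lower with a log2 difference of -2.30 ± 0.14 (adjusted p = 3.4e-14). Sfrp5, Frzb and Dkk1 were lower in wildtype cells too, with log2 differences of -3.47, -3.58 and -3.13. That of Dkk1 was -2.36 without wildtype replicate 2, and the 3 adjusted p were 3.8e-16, 1.2e-11 and 8.4e-10. Rspo2 had 2 counts in the wildtype libraries and 166 in those of FLAG-WT, lower by a ratio of 94.9 (95% interval 25.9 to 790.2), with a fitted difference of -6.38 ± 0.62 (adjusted p = 1.3e-09), or -9.32 without wildtype replicate 2.

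Genes that beta-catenin is known to switch on were taken as a list. Of 14 tested targets, 0 were higher and 3 lower in K19R cells at day 0, 6 to 2 at day 2, 10 to 3 at day 6 and 8 to 2 at day 10 (higher to lower). The shares that passed were 21.4%, 57.1%, 92.9% and 71.4%, beside 10.5%, 41.8%, 58.5% and 58.4% of all genes. No test of that excess was made. The median log2 difference of the targets was -0.06, 0.52, 0.98 and 0.72 at the 4 days, beside -0.002, 0, 0.02 and 0.13 over all genes. It was 1.22 and 0.70 at days 6 and 10 with genes at 0 counts set to their bound or left out. With library totals all genes split 8582 to 3188 at day 6 and 9329 to 2785 at day 10. The split of the targets with that scaling is not given here. The summed level of the 15 listed targets did not follow these counts at day 10, where it was 222 and 228 CPM in FLAG-WT and 183 and 198 CPM in K19R cells, while at day 6 it was 203 and 181 against 258 and 267 CPM. At day 10, 5 of 8 tested markers of streak and mesoderm were higher and 2 lower in K19R cells, where 58.4% of all genes passed. Their part in the differences of targets such as T was not tested. Axin2, the most general target, was at 83.6 and 89.4 CPM in FLAG-WT and 73.2 and 63.4 CPM in K19R cells at day 2 and at 1.83 and 3.27 against 11.8 and 12.2 CPM at day 10. K19R cells were lower at day 2, with a log2 difference of -0.34 ± 0.10 (adjusted p = 0.0078), and higher at day 10, with a log2 difference of 2.24 ± 0.18 (adjusted p = 5.3e-11), without overlap. The day 2 call was lost without FLAG-WT replicate 2 (adjusted p = 0.099) or K19R replicate 2 (0.15). The day 6 difference of 0.48 ± 0.15 (adjusted p = 0.0064) was lost without FLAG-WT replicate 2 (0.11) or K19R replicate 1 (0.063).

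Lef1, itself a partner of beta-catenin, was at 24.3 and 23.3 against 49.6 and 44.8 CPM at day 2 and at 0.472 and 0.642 against 3.21 and 4.51 CPM at day 6. It was higher in K19R without overlap, with log2 differences of 0.99 ± 0.12 (adjusted p = 2.3e-07) and 2.82 ± 0.28 (adjusted p = 3.2e-09), and with a log2 difference of 2.08 ± 0.27 (adjusted p = 2.7e-07) at day 10. Sp5 was at 1.25 and 0.701 against 3.21 and 4.44 CPM at day 6, higher with a log2 difference of 1.93 ± 0.32 (adjusted p = 8.5e-06), and with a log2 difference of 1.63 ± 0.32 (adjusted p = 8.8e-05) at day 10. At day 2 it had 1 count in FLAG-WT and 12 in K19R libraries, a ratio of 10.3 (95% interval 1.53 to 442), and the call (adjusted p = 0.022) was lost with DESeq2 (0.062), without K19R replicate 2 (0.11) and without FLAG-WT replicate 1 (0.14), while the log2 difference of 3.07 rose to 5.30 without FLAG-WT replicate 2. T, the primitive streak regulator, had 0 counts in FLAG-WT and 235 in K19R libraries at day 10, at least 30.5-fold higher, and 1 against 42 at day 6, a ratio of 31.8 (95% interval 5.41 to 1287). The fitted difference of T at day 6 was 4.74 ± 0.84 (adjusted p = 2.9e-05), and 7.29 without FLAG-WT replicate 1. Tnfrsf19 was higher in K19R with log2 differences of 2.23 ± 0.21 (adjusted p = 1.3e-09) at day 6 and 3.96 ± 0.26 (adjusted p = 1.0e-12) at day 10. Myc was lower in K19R with log2 differences of -1.07 ± 0.09 (adjusted p = 1.7e-10) at day 6 and -2.17 ± 0.09 (adjusted p = 2.0e-16) at day 10, and Ccnd1 was higher with a log2 difference of 1.33 ± 0.10 (adjusted p = 1.0e-11) at day 6 and lower with a log2 difference of -0.73 ± 0.09 (adjusted p = 2.4e-07) at day 10.

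**Figure D5:**
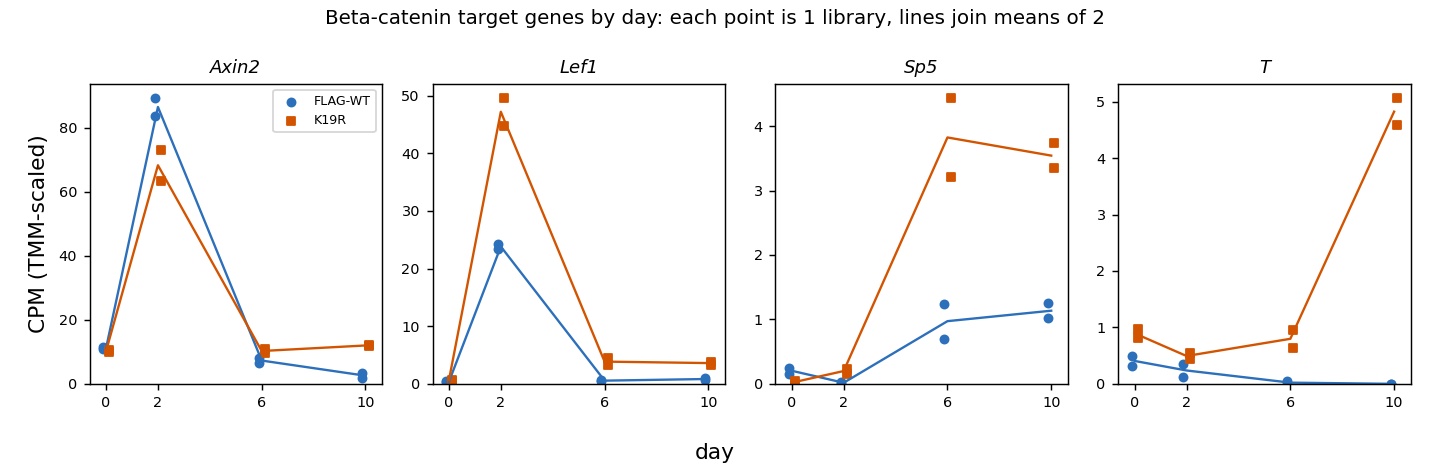
CPM by day for the beta-catenin targets Axin2, Lef1, Sp5 and T, with 1 point per library and lines through the means of 2 libraries for FLAG-WT (circles) and K19R (squares). Axin2 and Lef1 peak at day 2 in both lines, and at day 10 all 4 genes are higher in K19R cells.

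Inside the cell, 19 parts of the beta-catenin pathway were tested. In K19R cells 2 were higher and 1 lower at day 0, 5 to 6 at day 2, 5 to 10 at day 6 and 7 to 8 at day 10 (higher to lower), with medians of -0.11, -0.02, -0.16 and -0.08. The balance depends on scaling: with library totals it was 10 to 2 at day 6 and 10 to 3 at day 10. Tcf7l2, a TCF factor, was at 59.7 and 60.2 against 18.5 and 19.2 CPM at day 6, lower with a log2 difference of -1.67 ± 0.09 (adjusted p = 6.4e-14), and Dvl1, which relays the Frizzled signal, at 164 and 182 against 82.2 and 88.5 CPM, lower with a log2 difference of -1.02 ± 0.08 (adjusted p = 1.2e-11). Apc2, a relative of the scaffold of the destruction complex, was at 1.46 and 1.02 against 4.07 and 3.22 CPM at day 10, higher in K19R cells with a log2 difference of 1.55 ± 0.28 (adjusted p = 3.3e-05). Pygo1, a co-activator of beta-catenin, had a log2 difference of 1.52 ± 0.39 (adjusted p = 0.0018) at that day and Amer1, a membrane anchor of the destruction complex, one of 1.06 ± 0.13 (adjusted p = 7.8e-08).

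Of 19 genes for Wnt release and for other steps at the cell surface, 17 were tested. In K19R cells 1 was higher and 3 were lower at day 0, 3 to 4 at day 2, 7 to 5 at day 6 and 8 to 3 at day 10 (higher to lower), with medians of -0.07, -0.19, 0.30 and 0.35. With library totals the split was 10 to 4 at day 6 and 10 to 1 at day 10. Wls, the carrier that takes Wnt proteins to the cell surface, was at 17.6 and 18.2 CPM in FLAG-WT and 2.47 and 2.99 CPM in K19R cells at day 2, and Porcn, the enzyme that adds their lipid, at 23.8 and 24.8 against 10.9 and 9.71 CPM. Both were lower in K19R cells without overlap, with log2 differences of -2.72 ± 0.14 (adjusted p = 3.2e-14) and -1.24 ± 0.11 (adjusted p = 1.2e-09). At day 6 Wls had a log2 difference of -0.79 ± 0.09 (adjusted p = 6.6e-08), and at day 10 one of 0.35 ± 0.09 (adjusted p = 0.0022), a call lost without K19R replicate 2, at 0.19 (adjusted p = 0.11). The part of the endoderm markers, which were lower in K19R cells on the same days 2 and 6, was not tested.

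Notum, a secreted enzyme that removes the lipid from Wnt proteins, was at 0.313 and 0.428 against 4.27 and 3.35 CPM at day 10. Trabd2b, a protease that cuts Wnt proteins, was at 0.104 and 0.161 against 1.48 and 1.57 CPM. Both were higher in K19R cells without overlap, with log2 differences of 3.35 ± 0.29 (adjusted p = 2.2e-10) and 3.48 ± 0.61 (adjusted p = 2.4e-05). The day 6 difference of Notum, 0.92 ± 0.27 (adjusted p = 0.0044), was lost without FLAG-WT replicate 2, at 0.59 (adjusted p = 0.11), and was 1.53 (adjusted p = 0.0015) without FLAG-WT replicate 1. Gpc3, a surface proteoglycan, was lower in K19R cells with log2 differences of -1.66 ± 0.11 (adjusted p = 2.1e-12) at day 2 and -1.53 ± 0.10 (adjusted p = 2.0e-12) at day 6. Tspan12, a partner of Fzd4 in norrin signalling, was lower at day 6 with a log2 difference of -1.63 ± 0.16 (adjusted p = 1.8e-09), as Fzd4 was. Kremen2, a Dickkopf receptor, was at 0.431 and 0.759 against 2.25 and 2.55 CPM at day 2, higher with a log2 difference of 1.97 ± 0.32 (adjusted p = 1.9e-05).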

How the data were processed

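RNA was measured in 18 libraries of 9 groups with 2 libraries each. The deposited count tables hold whole-number read counts per gene, not normalized, and per the file headers the authors used featureCounts 1.6.3 and 1.6.4 on exons of GENCODE vM19 (GRCm38), without a strand option. The submitters' processing notes list STAR 2.7.0c, Trim Galore 0.6.0, FastQC 0.11.7 and bcl2fastq 2.17. Each group of knock-in cells was compared in 1 fit of the 16 FLAG-EED libraries with edgeR 4.0.16 in R 4.3.3. Genes were filtered with filterByExpr (minimum count 10, minimum total 15), which kept 19092 genes. TMM factors (trimmed mean of M values) scaled the libraries, and glmQLFit and glmQLFTest gave two-sided p-values, adjusted by Benjamini-Hochberg over all genes, with a threshold of 0.05. The residual degrees of freedom were 8 and the common biological coefficient of variation was 0.062. The wildtype cells entered a second fit of 18 libraries (19296 genes). Errors beside log2 differences are standard errors taken from the F statistic, and CPM were computed with the TMM factors. CPM per kb divide by exonic length. The script was tested on simulated data. Beside 0 counts, folds are lower bounds against 3 counts per library, and ratios resting on 1 to 3 counts carry exact 95% binomial intervals, which cover counting error only. In every group the 2 libraries differed by more than sampling noise (chi-square per degree of freedom 2.28 to 11.2). Each library was counted as 1 sample, but that spread may be technical and does not show that they were separate cultures. The replicate numbers did not pair the samples.

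The members, the marker and pathway lists and the tests were chosen with earlier results of these data known. Values in every library are given for members that passed with a log2 difference of at least 1 in a genotype comparison, up to 8 members are named per time comparison, and the other members are given by counts, ranges or levels. Alternatives were RLE size factors, library totals, no filter, DESeq2 1.42.0, a fit of the compared groups alone, a replicate block and leaving out each library. Each library was taken from its label, and none was left out.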

Additional observations from a re-analysis of the deposited data

Results flagged for a closer look

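The difference between K19R and FLAG-WT cells was not the same at each time point, as tested by the interaction of genotype and day in edgeR's quasi-likelihood fit, which shares the day 0 libraries between days. It changed from day 0 for 19 of 44 tested members at day 2, where 27.1% of all genes passed, 24 at day 6 (44.5%) and 26 at day 10 (45.0%). Without FLAG-WT replicate 2 of day 0, which stood apart in endoderm markers, 16, 19 and 23 members passed. By day 2 the log2 difference of Wnt11 changed by -3.88 and that of Wnt8a by 3.21. By day 6 that of Wnt11 changed by -3.11 and that of Wnt2b by 3.03, and the latter did not pass without FLAG-WT replicate 2 of day 0, without FLAG-WT replicate 1 of day 6 or without K19R replicate 2 of day 6, at 2.73, 2.55 and 2.60. By day 10 the difference of Sfrp5 changed by 6.22, that of Wnt8a by 5.06, that of Wnt3 by 3.93, that of Wnt5b by 3.49 and that of Wnt7a by -3.22. Wnt8a moved to 7.70 without FLAG-WT replicate 2 of day 10, Wnt5b to 2.81 without FLAG-WT replicate 1 of day 0 and to 4.20 without K19R replicate 2 of day 0.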

How the results depend on the processing

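Of the 616 tests of members (44 genes in 14 comparisons), 386 passed, and 298 of these passed in the same direction under every alternative tried. A further 45 were lost only when 1 library was left out. Signs turned for a few values only with library totals as the scaling: Fzd7 at day 10 from -0.25 to 0.054, its interaction to 0.044 at day 6 and 0.30 at day 10, the interaction of Fzd5 at day 6 to 0.38, Lgr4 at day 10 to 0.23, and Gpc3 at day 10 from -0.24 to 0.062. That scaling moved the median log2 of all genes between K19R and FLAG-WT cells by 0.36 at day 6 and 0.30 at day 10, in FLAG-WT cells against day 0 by -0.38 and -0.40, and in the interactions by 0.38 and 0.33. Relative to these shifts it moved the share of higher calls among all genes from 48.6% to 72.9% and from 56.9% to 77.0% between the lines, from 48.7% to 37.2% and from 47.5% to 36.8% in FLAG-WT cells against day 0, and from 49.7% to 76.9% and from 58.1% to 80.3% in the interactions; the cause was not tested. With only the compared groups in the fit, 11 members and 4014 genes passed at day 0, against 7 and 2003. Leaving out 1 library gave, between K19R and FLAG-WT, 3 to 5 members and 845 to 955 genes at day 0, 19 to 21 and 5829 to 6943 at day 2, 27 to 29 and 9711 to 9942 at day 6, and 28 to 33 and 9420 to 10290 at day 10. Against day 0 it gave 24 to 26 members and 9048 to 9297 genes, 31 to 35 and 13483 to 13791, and 30 to 34 and 14150 to 14275 in FLAG-WT cells at days 2, 6 and 10, and 27 to 31 and 9176 to 9776, 30 to 33 and 12635 to 13003, and 32 to 34 and 13160 to 13403 in K19R cells. For the interactions it gave 15 to 19 members and 3918 to 4827 genes, 19 to 22 and 7419 to 7833, and 23 to 26 and 7451 to 8339, and for wildtype cells 20 to 24 and 10296 to 11562; these fits have fewer samples, and a lone library is assumed to vary like the other groups. Same-numbered replicates did not deviate together: over 28 pairs of groups the correlation of their deviations ran from -0.17 to 0.17 with a median of -0.00, so the numbers are not taken as pairs. With the replicate number as a block, 7, 21, 32 and 32 members passed between the lines at days 0, 2, 6 and 10, against 7, 21, 32 and 33 without it, and Lgr5 at day 10 was lost (adjusted p = 0.053). With 2 libraries a group, members under about 1 CPM rest on few counts.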

Other observations

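Planar polarity, the ordering of cells within a sheet, uses Frizzled receptors without beta-catenin. Of its 9 core genes, all tested, none passed between K19R and FLAG-WT cells at day 0 (edgeR, adjusted p under 0.05), 4 were higher and 3 lower in K19R at day 2, 6 to 2 at day 6 and 4 to 3 at day 10 (higher to lower). The shares that passed at days 2, 6 and 10 were 77.8%, 88.9% and 77.8%, beside 41.8%, 58.5% and 58.4% of all genes. That excess was not tested. With library totals in place of trimmed mean scaling the split at day 10 was 4 to 0. Celsr3, an adhesion protein of the pathway, was at 0.313 and 0.642 CPM in FLAG-WT and 3.79 and 2.71 CPM in K19R cells at day 10, higher with a log2 difference of 2.76 ± 0.35 (adjusted p = 1.7e-07), or 3.37 without FLAG-WT replicate 2. Its relative Celsr1 was at 6.53 and 6.19 against 20.7 and 22.2 CPM at day 6, with a log2 difference of 1.75 ± 0.15 (adjusted p = 1.4e-10). Prickle2 differed by 1.27 ± 0.18 (adjusted p = 1.4e-06) at day 10. The K19R libraries of Celsr3 and Celsr1 lay above those of FLAG-WT on these days.

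4 pairs of Wnt genes lie next to each other in the genome (GENCODE vM19, GRCm38). Both genes of a pair passed between the lines only for Wnt9b and Wnt3. The other pairs therefore do not show whether their genes share a direction. Wnt9b and Wnt3, 24328 bases apart on chromosome 11, both had higher levels in K19R cells at day 10, with log2 differences of 1.81 and 3.46. Wnt3a and Wnt9a, 16175 bases apart on chromosome 11, had fitted log2 differences of 2.74 (adjusted p = 0.089) and -2.24 (adjusted p = 7.0e-15) at day 10. That of Wnt3a rests on 10 counts in K19R and 1 in FLAG-WT cells, a ratio of 7.78 (95% interval 1.11 to 338). Wnt6 and Wnt10a, 6193 bases apart on chromosome 1, had -1.17 (adjusted p = 0.0015) and 0.25 (adjusted p = 0.80) at day 2. In the pair of Wnt10b and Wnt1 on chromosome 15, Wnt1 had at most 4 counts in a library and was not tested. Whether genes of a pair differ from unlinked genes was not tested.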
